A study of Homo sapiens with 17 samples.

Results

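Chromosome 19 carries dense families of zinc finger genes, and those of its proximal long arm are described here by the histone marks that covered them and by the FOXA1 and FOSL2 peaks around them in A549 cells, a human lung carcinoma line. Members were the protein-coding genes of the RefSeq annotation of GRCh38.p14 whose symbol is ZNF and a number, with or without a closing letter, and whose start on chromosome 19 lies from 26000000 up to 50000000. The rule gave 64 genes of 19974 protein-coding genes on chromosomes 1 to 22 and X. They ranged in length from 4.77 to 488.0 kb, with a median of 24.4 kb. Of the members 16 overlap another protein-coding gene, which then shares their peaks. Strand and transcription starts were known for 57 of them, with 85 starts in all.

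The study mapped binding of FOXA1, a forkhead pioneer factor, and of FOSL2, a subunit of the AP-1 dimer, together with H3K9me3 and H3K27me3, by chromatin immunoprecipitation and sequencing (ChIP-seq). Each library holds 50 M paired-end reads of 50 bp per the labels, and each ChIP group has 2 libraries labelled as biological replicates. Wild-type (WT) A549 cells without treatment gave the H3K9me3, H3K27me3 and a first pair of FOXA1 libraries. A549 cells with A-Fos integrated by piggyBac, without doxycycline or with doxycycline at 1 ug/mL for 48 h, gave the other FOXA1 libraries and all FOSL2 libraries. A-Fos is a dominant-negative partner that keeps Fos and Jun proteins from DNA. The labels do not say whether the A-Fos cells were 1 clone or a pool. Both histone marks were mapped only in WT cells, so a statement about a mark at an A-Fos peak uses the WT map. All cells were fixed with 1% formaldehyde for 10 min.

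Most zinc finger genes of this kind encode repressors with a KRAB domain, which recruits TRIM28 and through it the H3K9 methyltransferase SETDB1. Their proteins bind transposable elements, and the genes themselves are known to carry broad H3K9me3, most of all over the exon near the 3' end that encodes the array of fingers. H3K27me3 is laid down by Polycomb repressive complexes and is typical of silent developmental genes.

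The promoters of 6 members show the contrast that runs through these data, of starts inside and outside H3K9me3. ZNF181 (chr19:34733993-34734242, plus strand), ZNF383 (chr19:37217964-37218213, plus strand) and ZNF222 (chr19:44025129-44025378, plus strand) have starts without an H3K9me3 base found in both lists and with a FOXA1 region in WT cells. ZNF585B (chr19:37210537-37210786, minus strand) has a fully covered start with a FOXA1 region. ZNF568 (chr19:36916082-36916331, plus strand) and ZNF404 (chr19:43883965-43884214, minus strand) have fully covered starts and no FOXA1 region. The 250 bases before each start follow, from RefSeq (GRCh38.p14), 5′ to 3′ on the strand of the gene, with each CG in capitals. They were chosen after the values were seen.
ZNF181: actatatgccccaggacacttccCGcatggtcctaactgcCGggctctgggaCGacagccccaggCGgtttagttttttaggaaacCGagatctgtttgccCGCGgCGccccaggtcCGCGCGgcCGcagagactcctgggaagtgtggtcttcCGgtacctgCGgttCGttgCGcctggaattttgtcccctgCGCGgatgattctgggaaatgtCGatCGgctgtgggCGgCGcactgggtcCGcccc
ZNF383: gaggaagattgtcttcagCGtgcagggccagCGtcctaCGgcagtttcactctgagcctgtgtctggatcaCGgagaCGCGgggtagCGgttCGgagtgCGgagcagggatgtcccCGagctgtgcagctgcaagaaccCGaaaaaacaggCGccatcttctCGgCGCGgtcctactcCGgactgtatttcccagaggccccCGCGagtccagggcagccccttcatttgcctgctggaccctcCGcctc
ZNF222: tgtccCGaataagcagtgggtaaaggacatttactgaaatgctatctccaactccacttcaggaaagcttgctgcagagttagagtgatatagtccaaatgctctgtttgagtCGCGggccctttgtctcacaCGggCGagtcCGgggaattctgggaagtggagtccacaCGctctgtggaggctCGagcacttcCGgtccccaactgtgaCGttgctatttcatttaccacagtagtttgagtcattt
ZNF585B: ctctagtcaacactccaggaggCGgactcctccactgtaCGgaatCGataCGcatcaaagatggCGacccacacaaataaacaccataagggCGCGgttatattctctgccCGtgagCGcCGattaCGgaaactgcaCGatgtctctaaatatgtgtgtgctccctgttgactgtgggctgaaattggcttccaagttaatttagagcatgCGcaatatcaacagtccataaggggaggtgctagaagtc
ZNF568: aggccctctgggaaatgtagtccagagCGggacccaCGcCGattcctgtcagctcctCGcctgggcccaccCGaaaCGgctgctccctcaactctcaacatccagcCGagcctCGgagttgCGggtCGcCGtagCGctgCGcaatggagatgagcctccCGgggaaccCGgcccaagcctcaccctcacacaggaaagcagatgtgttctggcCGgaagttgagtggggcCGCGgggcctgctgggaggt
ZNF404: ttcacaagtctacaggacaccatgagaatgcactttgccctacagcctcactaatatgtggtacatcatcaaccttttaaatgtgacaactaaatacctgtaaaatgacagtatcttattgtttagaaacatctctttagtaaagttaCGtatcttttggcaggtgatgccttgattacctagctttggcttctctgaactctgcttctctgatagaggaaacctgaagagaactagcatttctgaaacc
The number of CG in these stretches was 23, 19 and 10 at the uncovered starts of ZNF181, ZNF383 and ZNF222, and 13, 18 and 1 at the covered starts of ZNF585B, ZNF568 and ZNF404, so both kinds included CG-rich promoters.

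H3K9me3 covered most of the body of most members. A gene is called marked here when at least 10% of its body lay under peaks of the mark in both lists. By that rule 57 of the 64 members (89.1%) were marked by H3K9me3, beside 6.37% of all protein-coding genes. At least 50% of the body was covered in both lists in 54 members, at least 75% in 45, and at least 90% in 12. The median member had 83.9% of its body covered in replicate 1 and 87.9% in replicate 2. The median absolute difference between the replicates was 4.09 percentage points. Replicate 2 was higher in 46 members and replicate 1 in 13. ZNF565 differed most, with 70.1% in replicate 1 and 91.7% in replicate 2.

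Of the 6 members with the highest covers, all but ZNF181 belong to the long run of genes from ZNF565 to ZNF573. ZNF850 had 94.9% in replicate 1 and 97.5% in replicate 2. ZNF585B, 1 of a pair of near-identical neighbours, had 93.4% and 98.0%. ZNF146, which encodes a short protein of zinc fingers without a KRAB domain, had 92.3% and 94.6%. ZNF383 followed with 93.1% and 94.4%, ZNF181 with 91.7% and 95.2%, and ZNF566 with 91.1% and 96.1%. ZNF382, a KRAB repressor, had 89.0% and 93.1%, and ZNF180 had 92.6% and 93.6%. How reads shared by near-identical copies, such as ZNF585A with ZNF585B or ZNF780A with ZNF780B, were assigned is not given in the sources used here.

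**Figure D1:**
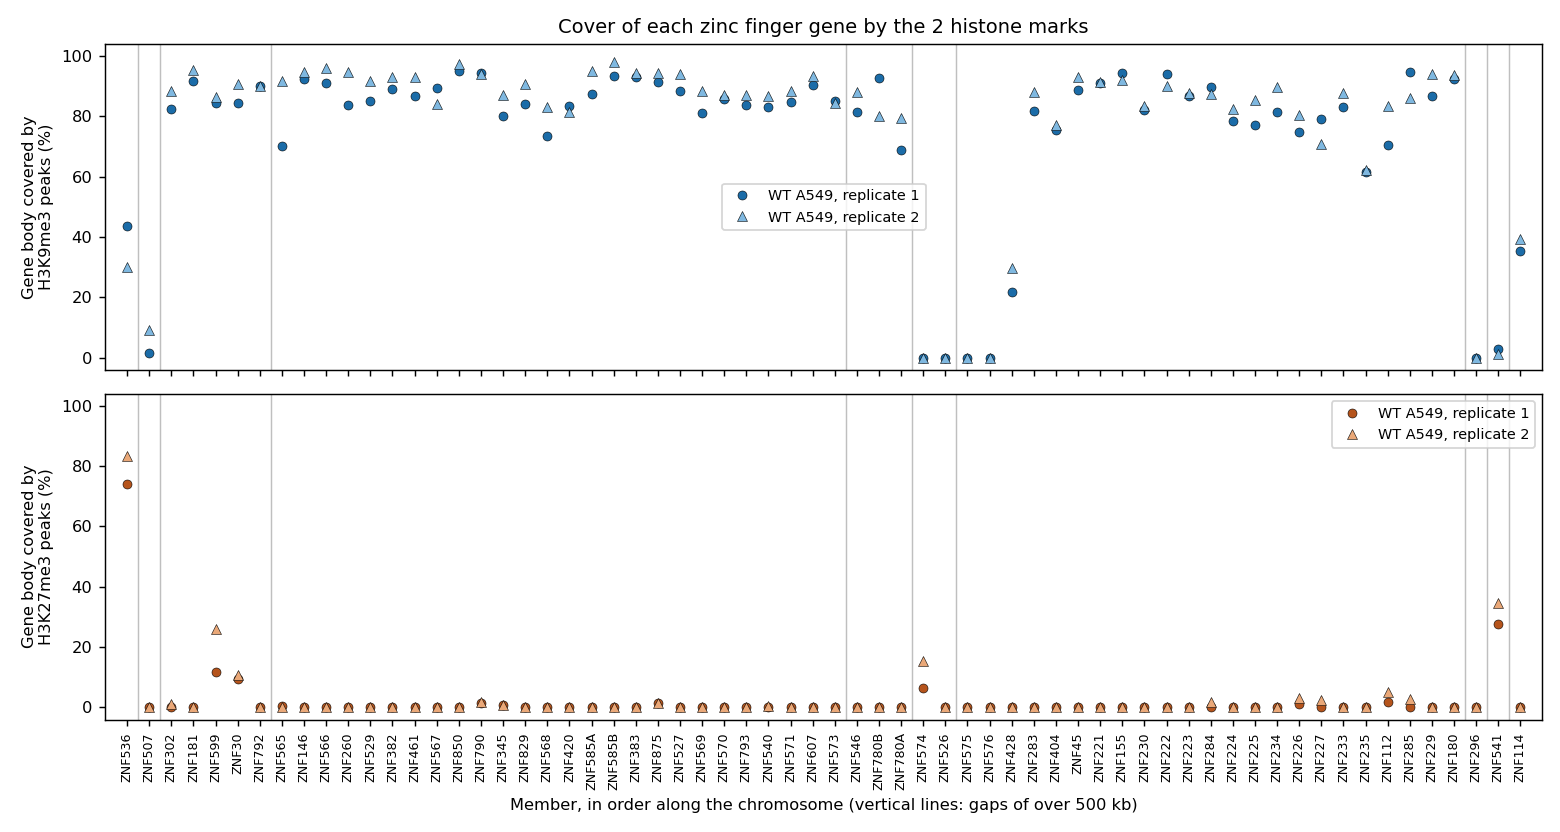
Percent of each gene body under H3K9me3 peaks (upper panel) and H3K27me3 peaks (lower panel) in WT A549 cells, for the 64 members in chromosome order; circles are replicate 1, triangles replicate 2, and vertical lines mark gaps of over 500 kb between neighbouring members. H3K9me3 lies above 50% in both lists in 54 members, is low at ZNF536, ZNF428 and ZNF114, and is under 10% at ZNF507, ZNF574, ZNF526, ZNF575, ZNF576, ZNF296 and ZNF541, and H3K27me3 is broad at ZNF536.

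The mark ran on between the genes. Where H3K9me3 bases found in both lists were joined over gaps of up to 5 kb, 10 blocks of at least 50 kb touched members. They spanned 3.04 Mb and held 53 members whole. The longest, from ZNF566 to ZNF383, measured 959.1 kb, held 15 members and was 83.7% covered. The next, from ZNF283 to ZNF180, measured 725.1 kb, held 20 members and was 75.4% covered. A block from ZNF875 to ZNF573 measured 534.3 kb, held 9 members and was 84.0% covered.

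Split at gaps of over 500 kb, the members fell into 10 groups. The group of 26 from ZNF565 to ZNF573 was marked throughout, with covers in both lists from 68.7% to 93.5% (median 84.6%). The 5 genes from ZNF302 to ZNF792 were all marked, from 80.4% to 91.7%. The 3 genes from ZNF546 to ZNF780A had 68.3% to 80.4%. Of the 23 from ZNF575 to ZNF180, 21 were marked. ZNF536, ZNF507, ZNF296, ZNF541 and ZNF114 stood alone, and ZNF574 and ZNF526 made a pair. None of these 7 had 50% of its body covered in both lists. In the large groups only ZNF575, ZNF576 and ZNF428, the 3 at the near edge of the group that ends at ZNF180, were below that level.

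The other genes of the window, here with 4 zinc finger genes of ZFP-type symbols, were counted by their distance from a member. Of the 5 that overlap a member 3 were marked. Of 33 within 50 kb 7 were, the zinc finger genes ZFP82 and ZFP30 among them. Between 50 and 200 kb 12 of 78 were marked, and farther away 50 of 332 (15.1%). PSMC4, a proteasome subunit next to ZNF546, had 60.9% and 68.6% of its body covered. LYPD5 had 58.9% and 64.6%, and CEACAM20 had 71.4% and 84.1%, at the ends of the block from ZNF283 to ZNF180. Of 4 zinc finger genes of the window with ZFP-type symbols 3 were marked, each with at least 50% of its body covered in both lists. That cover was 82.2% in ZFP82 and 74.0% in ZFP30. These neighbours were named after their values were seen.

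The other ZNF genes of the genome give a scale for these values. Below 26 Mb on chromosome 19, 76 of 83 were marked with a median cover in both lists of 48.2%. From 50 Mb on, 86 of 99 were marked with a median of 87.8%. The members had a median of 80.9% in both lists. Off chromosome 19, 123 of 263 (46.8%) were marked with a median of 5.90%. Of the 444 other genes of the same window, now without the 4 ZFP-type genes, 69 were marked. These counts describe genes that lie side by side and often under 1 block of the mark, so they are not independent and no test was made of them. Just outside the window limits, ZNF254 had 56.0% and 79.6% of its body covered and ZNF473 had 97.1% and 98.2%. Just inside them, ZNF536 had 43.6% and 30.1%, and ZNF114 had 35.3% and 39.4%.

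The other 7 members were not marked by H3K9me3. ZNF526, ZNF575, ZNF576 and ZNF296 had no base under a peak in any of the 4 histone lists, 4 of 64 members beside 38.9% of all genes. Their lengths ran from 4.77 to 7.89 kb, and ZNF296, which is expressed in embryonic stem cells, overlaps GEMIN7. ZNF574 had no H3K9me3 base, and H3K27me3 covered 6.47% and 15.3% of it. ZNF507 had 1.56% and 9.20% under H3K9me3 and 0 under H3K27me3. ZNF541, a germ-cell gene, had 2.86% and 1.21%. At the low end of the marked genes, ZNF428 had 21.7% and 29.7%. SRRM5, which overlaps ZNF428, was fully covered in both lists.

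H3K27me3 was rare. It marked 2 of the 64 members (3.13%), beside 14.7% of all protein-coding genes and 31.8% of the other genes of the window. By replicate 1 alone 3 members were marked and by replicate 2 alone 5. In 48 members no base lay under an H3K27me3 peak in either list. ZNF536, which represses neuronal differentiation and is the longest member, had 74.0% and 83.3% of its body covered by H3K27me3. It was also the 1 member marked by both modifications, with 23.3% of its body under H3K9me3 in both lists. ZNF541 had 27.7% and 34.6% under H3K27me3. ZNF599 had 11.6% and 26%, and ZNF30 had 10.9% in replicate 2, but the bases covered in both lists stayed at 7.92% and 9.29% of these genes, under the limit of 10%. ZNF875 had 1.47% in both lists. These are covers of gene bodies, and some starts were covered more. In the 300 promoter bases of a start, H3K27me3 in both lists covered 100% at a start of ZNF875 and at one of ZNF574. It covered 93.7% at a start of ZNF112 and 60% at one of ZNF345. These starts of ZNF875, ZNF112 and ZNF345 were also fully under H3K9me3, while that of ZNF574 held none. Starts of ZNF536 and ZNF790 held H3K27me3 too, but most of the 85 starts did not.

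Along the gene, the mark was nearly even but for the start. In the 50 marked members with a known strand, a median of 51.8% of the H3K9me3 bases lay downstream of the gene's midpoint (51.5% in replicate 1 and 51.1% in replicate 2), and the share was above 50% in 32 of 50. Middle values ran from 49.2% to 54.1% (quartiles). Marked genes that are not ZNF had a median of 51.7% but quartiles from 24.2% to 79.7%. Quartiles were 49.1% to 52.2% in ZNF genes from 50 Mb on chromosome 19 and 49.9% to 59.7% in those below 26 Mb. Off chromosome 19 they were 47.3% to 66.8%. The share was above 50% in 52.2% of the marked genes that are not ZNF. Among marked ZNF genes it was so in 63.5% from 50 Mb on, 74.6% below 26 Mb and 64.5% off chromosome 19. A gene covered over most of its body can only have a share near 50%, so a narrow range restates high cover. ZNF235 had the largest share downstream of the midpoint at 65.0%, followed by ZNF112 at 64.0%, ZNF225 at 63.5% and ZNF224 at 61.3%, all 4 in the group from ZNF575 to ZNF180. The smallest shares were 33.1% in ZNF565, 35.4% in ZNF226, 43.8% in ZNF404 and 44.6% in ZNF780B. The strongest H3K9me3 peak that overlaps each gene, by the authors' enrichment over control, had its summit downstream of the midpoint in 34 of 50 members in replicate 1 and in 37 in replicate 2. Other genes were not counted in this way. The counts of members include summits past the 3' end of the gene. In replicate 1 they were those of ZNF260, ZNF382, ZNF585A, ZNF780A and ZNF230. In replicate 2 they were those of ZNF599, ZNF382, ZNF793, ZNF573, ZNF780B and ZNF229.

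The ends of the genes differed from each other. In windows of 1 kb on either side of the annotated 5' end, 23 of the 50 had at least 50% covered in both lists, beside 22.1% of all H3K9me3-marked genes with a strand. Around the 3' end 43 of 50 did, beside 34.5%. The median cover was 34.8% at the 5' end and 86.0% at the 3' end. It was lower at the 5' end than at the 3' end in 36 members and higher in 11. Mean cover in replicate 1 was 79.4% in the second kb upstream of the 5' end, 53.3% in the first kb, 65.9% in the first 10% of the gene's length and 88.9% in the step from 80% to 90%.

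**Figure D2:**
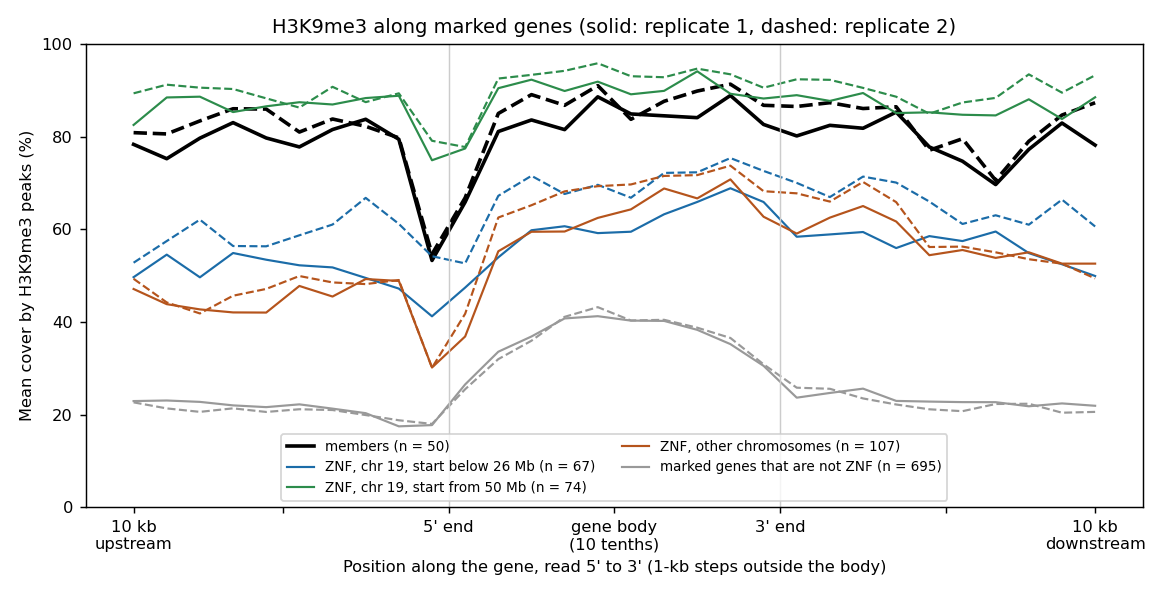
Mean percent of bases under H3K9me3 peaks from 10 kb upstream of the 5' end, through the body in 10 equal steps, to 10 kb downstream of the 3' end, for genes marked by H3K9me3 whose strand is known; solid lines are replicate 1 and dashed lines replicate 2. The members (black) drop to 53.3% and 54.6% in the last kb before the 5' end and stand at 65.9% and 66.8% in the first step of the body; the ZNF genes that start from 50 Mb on have 74.9% and 79.1% in that last kb.

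The drop was sharper around the RefSeq starts themselves, 1 per marked member (the one nearest the 5' end). Mean cover in replicate 1 was 80.2% at 2.75 to 3 kb upstream, 36.7% in the last 250 bp before the start, 34.0% in the first 250 bp after it and 88.9% at 2.75 to 3 kb downstream. In replicate 2 the same windows had 79.1%, 31.2%, 32.9% and 90.9%. Each start was then taken with its 300 bases of promoter. Of the 76 starts of marked members 48 (63.2%) held no base covered in both lists, 22 (28.9%) were fully covered and 6 were partly covered. Of all 22132 starts of protein-coding genes 98.2% held none, and of the 887 starts of marked genes that are not ZNF 82.0% held none.

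**Figure D3:**
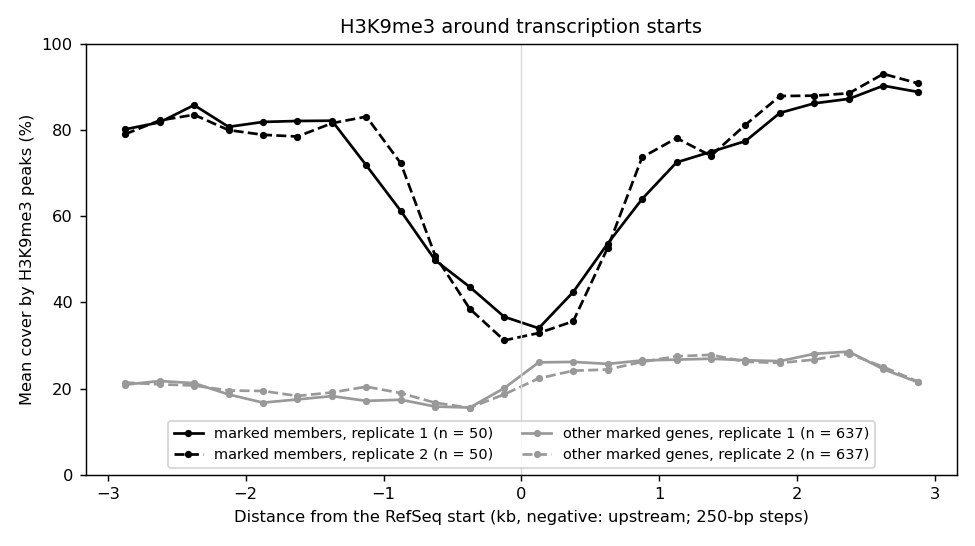
Mean percent of bases under H3K9me3 peaks in 250-bp steps from 3 kb upstream to 3 kb downstream of the RefSeq start nearest the 5' end, for the 50 marked members (black) and for other marked genes (grey), solid for replicate 1 and dashed for replicate 2. In the members the cover falls to 34.0% in replicate 1 and 31.2% in replicate 2 beside the start and stands at 88.9% and 90.9% at the downstream edge.

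Members differed in whether their starts carried the mark. In 32 marked members no RefSeq start held an H3K9me3 base found in both lists. In 9 every start was fully covered in both: ZNF345, ZNF404, ZNF568, ZNF585B, ZNF599, ZNF790, ZNF793, ZNF829 and ZNF850. The other 9 had mixed or partly covered starts. Of the genes with only covered starts, 5, ZNF850, ZNF790, ZNF345, ZNF829 and ZNF568, follow each other along the chromosome and hold 10 starts. ZNF585B and ZNF383, whose promoters are printed above, are read away from each other from starts 7.68 kb apart. By bases found in both lists, the first start was fully covered while the second had no covered base. The number of CG in the 300 bases had a median of 21.5 at the uncovered starts and 19 at the fully covered ones, against 21 over all starts, and GC content was 59.8% and 59.7%.

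FOXA1 regions, defined as peaks of WT cells that overlap between both lists, lay within 50 kb of 52 of the 64 members (81.3%), beside 71.6% of all genes and 89.9% of the other genes of the window. The same share was 14.5% for the ZNF genes below 26 Mb on chromosome 19 and 41.4% for those from 50 Mb on. There were 62 such regions, 28 of them touching a member. Their median enrichment ranked at the 52.5th percentile of the FOXA1 lists. That rank is among all peaks of a list, shared or not, and the median rank of all shared regions was not computed. There were 3 above the 90th percentile, and none of these 3 was within 1 kb of a member's start. One at chr19:32372656-32374559 lies in the body of ZNF507 at percentile 99.8, and those at chr19:34994199-34995816 and chr19:35005961-35007251 lie 30.0 and 41.7 kb from ZNF792 and rank higher still.

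Of the 62 regions, 19 (30.6%) held H3K9me3 bases, beside 1.95% of all 35739 FOXA1 regions, and 10 were fully covered. The windows within 50 kb of members span 4.45 Mb and are themselves rich in the mark. Its blocks that touch members span 3.04 Mb and were 34.9% to 84.0% covered. The share over all FOXA1 regions is thus no measure of an excess in these windows, whose own share under the mark was not computed. Of the 62 regions, those with the mark had a median percentile of 46.7 and those without it 55.9. A FOXA1 region lay within 1 kb of a start in 15 of 57 members, beside 12.4% of all genes with a start. Among the starts of marked members, 12 of the 48 uncovered ones had a FOXA1 region and 2 of the 22 fully covered ones did, those of ZNF585B and ZNF790. The highest ranks at a start were those of ZNF585A (percentiles 86.7 and 90.7) and ZNF383 (83.1 and 90.6), followed by ZNF575 (73.6 and 86.5) and ZNF585B (80.4 and 79.6), whose means were level. The region at ZNF222 ranked at 47.3 and 20.6. A region across the lower annotated end of ZNF233 ranked at 89.8 and 85.6, with 44.5% of it under H3K9me3. The strand and starts of ZNF233 were not known, so it was not in the counts at starts.

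The letters of the forkhead core TGTTTAC, searched on both strands, were in 0 of the 85 member promoters of 300 bases and in 2.85% of all promoters. The AP-1 letters TGANTCA were in 5 of the 85 (5.88%) and in 6.15% of all. Those 5 belong to ZNF260, ZNF576, ZNF222, ZNF226 and ZNF235, and none of these 5 promoters held an H3K9me3 base found in both lists.

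FOSL2 regions of A-Fos cells without doxycycline, again peaks that overlap between both lists, lay within 50 kb of 12 of the 64 members (18.8%), beside 38.9% of all genes and 52.0% of the other genes of the window. With peaks of 1 list alone, replicate 1 placed FOSL2 near 60 members and replicate 2 near 42, so few of these peaks were shared. There were 17 regions, 5 of them touching a member. Of the 17, 0 lay within 1 kb of a member start, beside 2.36% of all 10190 FOSL2 regions at a start of any gene. The strongest, at chr19:32373638-32374264 in ZNF507, had a mean percentile of 99.3 and overlapped the strong FOXA1 region there. The pair nearest ZNF114, 9.72 and 38.2 kb away, had mean percentiles of 94.0 and 94.1. One 42.5 kb from ZNF283 had 87.6, and one 44.9 kb from ZNF546 had 81.0. None of these 5 regions held an H3K9me3 base. Of the 17 regions 5 did, with a median percentile of 8.03, while the other 12 had a median of 66.9. Over all FOSL2 regions 2.26% held H3K9me3, which is no measure of an excess in windows rich in the mark. Of the 17 regions 15 met no FOSL2 peak in either list with doxycycline, and 2 met a peak in 1 of them.

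The lists with doxycycline held fewer FOSL2 peaks near members, and far fewer in all. Single lists held 81 and 54 FOSL2 peaks within 50 kb of a member without doxycycline (67.5 ± 19.1, SD, n = 2) and 26 and 34 with it (30.0 ± 5.66, n = 2). The ranges of these counts did not overlap. The difference was -37.5 peaks, with an exact permutation p of 0.333 (two-sided), the smallest that 2 against 2 libraries allow. As shares of each list the order turned: 0.178% and 0.364% without doxycycline, 1.40% and 0.645% with it, where the whole lists held 45586 and 14842 peaks without and 1854 and 5274 with doxycycline. With only the peaks above the median enrichment of their list the difference was -3 peaks (exact permutation p of 0.667). The counts were 19 and 9 without and 5 and 17 with doxycycline, and their ranges overlapped.

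The FOSL2 peaks near members with doxycycline lay mostly on H3K9me3. Of these peaks, 22 of 26 (84.6%) and 33 of 34 (97.1%) overlapped H3K9me3, beside 19.3% and 16.8% of the whole lists. Without doxycycline it was 48 of 81 (59.3%) and 37 of 54 (68.5%), beside 4.08% and 7.63%. The sequence around members is itself rich in the mark, so the whole lists are no measure of an excess there. Peaks free of H3K9me3 numbered 33 and 17 without doxycycline and 4 and 1 with it. The strongest enrichment near a member was 4.71 in replicate 1 and 4.77 in replicate 2 with doxycycline, and 64.7 and 19.3 without it, both at the site in ZNF507. Ranked within their own lists, the peaks near members had median percentiles of 25.9 and 44.3 with doxycycline and 11.9 and 14.8 without it. Of 52 regions found in both lists with doxycycline over the genome, 25 (48.1%) held H3K9me3. Only 4 of the 52 were near members, and all 4 held the mark. One lies in ZNF536, one in ZNF569 and one in ZNF540 and ZNF571, which overlap. The last lies outside the members, within 50 kb of ZNF302 and ZNF181. Their enrichment was at most 3.31 in replicate 1 and 3.56 in replicate 2. The part of the mark in these counts was not tested.

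FOXA1 in the A-Fos cells gave 16 and 18 peaks near members without doxycycline (17.0 ± 1.41, SD, n = 2) and 35 and 46 with it (40.5 ± 7.78, n = 2). The ranges of these counts did not overlap. The difference was 23.5 peaks, with an exact permutation p of 0.333 (two-sided), again the smallest possible. With only the peaks above the median enrichment of their list it was 2 peaks (3 and 4 without, 4 and 7 with doxycycline, exact permutation p of 0.667). As a share of the list it was 0.210% and 0.136% without and 0.315% and 0.305% with doxycycline. On H3K9me3, 11 and 10 of these peaks lay without and 26 and 34 with doxycycline. Over the whole lists 3.14% and 2.08% of the peaks without and 5.19% and 6.38% of those with doxycycline lay on H3K9me3. Off H3K9me3 there were 5 and 8 without and 9 and 12 with it. The WT lists, with 49448 and 80318 peaks against 7633 and 13247 without and 11112 and 15065 with doxycycline, held 161 and 211 peaks near members, 76 and 51 of them on H3K9me3.

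**Figure D4:**
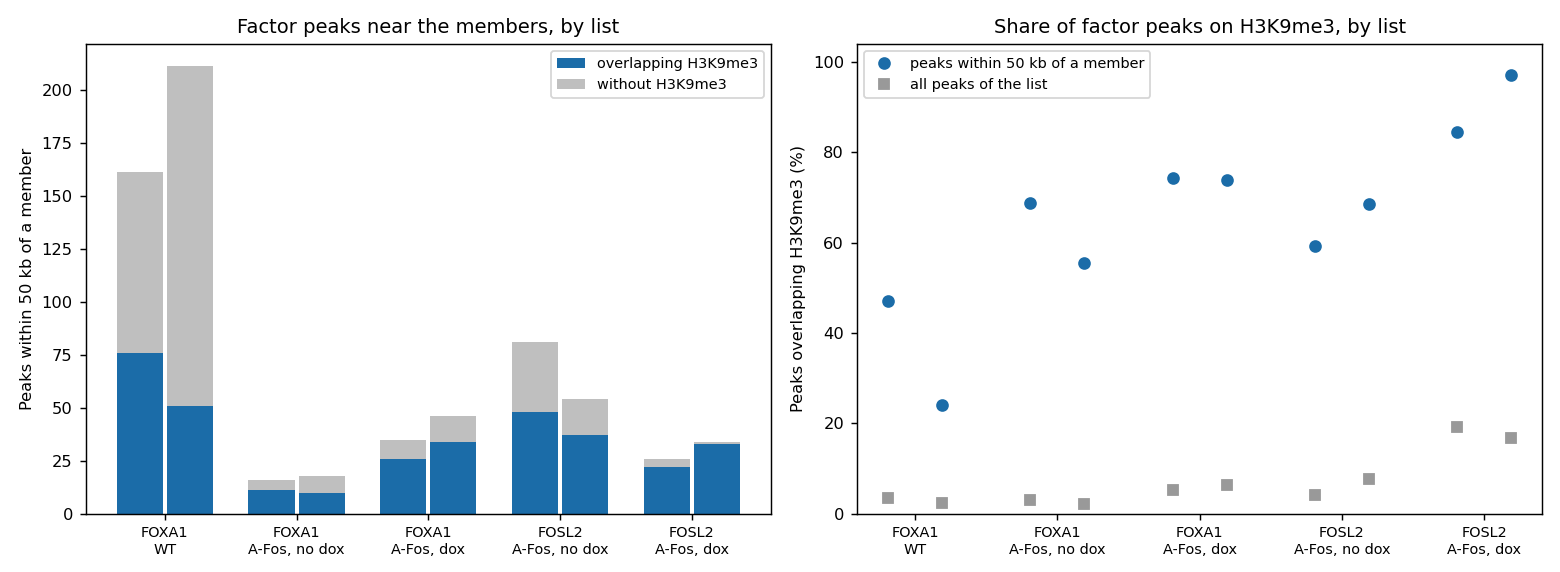
Left, number of FOXA1 or FOSL2 peaks within 50 kb of a member in each list, 2 bars per group (replicates 1 and 2), split into peaks that overlap H3K9me3 of WT cells (blue) and peaks that do not (grey). Right, percent of peaks that overlap H3K9me3 for peaks near members (circles) and for the whole list (squares), highest for FOSL2 with doxycycline at 84.6% and 97.1% near members. The sequence around members is itself rich in H3K9me3.

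The 3 strongest FOXA1 sites near members were present in every list. In A-Fos cells the FOXA1 region in ZNF507 was in all 4 lists, with an enrichment of 28.2 and 50.7 without and 35.9 and 42.8 with doxycycline. The region 41.7 kb from ZNF792 had 23.3 and 37.6 without and 27.4 and 36.2 with it. The one 30.0 kb away had 8.92 and 15.8 without and 17.7 and 17.8 with it. Of the 62 WT regions near members, these 3 were in all 4 A-Fos lists and 48 were in none. FOXA1 regions found in both lists of a group numbered 3 near members without doxycycline (0.0499% of 6015) and 8 with it (0.137% of 5859). Of the 3, 0 held H3K9me3. Of the 8, 3 held it and were fully covered, with enrichment between 2.28 and 3.96. Over all such regions 1.08% without and 1.98% with doxycycline held H3K9me3. These shares are no measure of an excess near members, where the sequence is rich in the mark.

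Genes of the H3K9me3 pathway were counted in the same way. Of 24 listed genes, among them TRIM28 and SETDB1, 2 were marked by H3K9me3, ATF7IP and the zinc finger gene ZNF274 of the end of chromosome 19, and 0 by H3K27me3, a share of H3K9me3-marked genes near the 6.37% of all genes. TRIM28 had no base under either mark. ZNF274 had 96.7% and 96.9% of its body under H3K9me3. Among marker genes of cell types, 0 of 8 epithelial marker genes were marked by either modification, while H3K27me3 marked 1 of 8 fibroblast and endothelial markers (VWF), 1 of 6 blood markers (CD3E) and 2 of 4 neuronal markers (RBFOX3 and NEUROD1), beside 14.7% of all genes. These lists are too short to tell the cell type from the marks.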

How the data were processed

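Peak lists of 14 ChIP libraries were used, the 3 input libraries having none here. Per the submitters' processing notes, reads were handled with fastp 0.23.2, BWA 2.2.1, SAMtools 1.8, deepTools, DRAGEN and MACS2, with hg38; which settings and which role each had is not stated there. In the deposited lists a peak has a position, a fold enrichment over control (a ratio) and a −log10 p-value and −log10 q-value, all from the authors' caller; the smallest −log10 q was 1.30. Peaks were called per library. A list keeps no read depth, so a longer list and more binding cannot be told apart, and enrichment was ranked within a list only.

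Peaks on chromosomes 1 to 22 and X were merged per list and set against RefSeq genes of GRCh38.p14. Cover is the percent of a gene body under peaks, and "both lists" means bases covered in each of the 2 lists. Factor regions are overlapping peaks (1 base or more) of both lists, merged. A single start, factor peak or factor region counts as holding H3K9me3 where a base covered in both lists falls in it. Replicates of doxycycline contrasts were compared by an exact permutation test over libraries. Replicate numbers of the A-Fos libraries are not said to pair them; the paired fit is in the closing section. Strand came from the RefSeq promoter table; ZNF30, ZNF571, ZNF221, ZNF155, ZNF223, ZNF233 and ZNF114 were not in it and were left out of positions along the gene, a departure from the planned use of their lower coordinate. End windows use annotated gene ends, which for some members lie away from the RefSeq starts.

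Named genes were the 6 with most H3K9me3 and the 6 with most H3K27me3, the unmarked, the 4 with the largest and the 4 with the smallest share of H3K9me3 downstream of the midpoint, the 4 with the strongest FOXA1 and the 4 with the strongest FOSL2 region, 8 fixed genes and those at the limits; others are said to be chosen afterwards. Genes named in lists of starts, motifs, blocks and summits past a gene's end were chosen after their values were seen. The members and gene lists were chosen with earlier results of these data known. Interval functions were tested on simulated data. Python 3.11.15, pandas 2.3.3, NumPy 2.4.6 and matplotlib 3.10.9 were used.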

Additional observations from a re-analysis of the deposited data

How the results depend on the processing

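The count of members marked by H3K9me3 was 53 to 57 under every alternative run. Members marked by H3K27me3, 2 as reported, were 5 at a limit of 5% of the body, and 1 at 25% and at 50%; leaving out a replicate gave 3 to 5. Unmarked members were 9, not 4, where under 50% in each list counted as unmarked. The median share of H3K9me3 downstream of the midpoint was 52.5% in members that overlap no other gene, 51.2% with peaks up to 1 kb apart joined, 52.3% with the lower coordinate as the start of strandless genes (the form first planned, replaced after seeing the data) and 51.1% to 51.5% leaving out a replicate, the spread between replicates being 0.261 (SD). Members with FOXA1 were 28 within 10 kb, 21 inside the body and 21 with only peaks above the median enrichment, and 62 to 63 leaving out a replicate. Members with FOSL2 were 4 within 10 kb, 21 within 100 kb, 3 inside the body, 6 with only peaks above the median enrichment, 7 among the members at least 50% covered by H3K9me3 (chosen after seeing the data), and 42 to 60 when 1 list alone was used. The doxycycline difference in FOSL2 peaks turned from -37.5 to 0.753 percentage points when taken as a share of the list. With only peaks above the median enrichment it was -3 for FOSL2 and 2 for FOXA1 (exact permutation p of 0.667 for each). Leaving out 1 library it was -51.0 to -24.0, and for FOXA1 18.0 to 29.0. With the replicate block (paired by number) the differences were -37.5 and 23.5 peaks, each with an exact permutation p of 0.5, the smallest that 2 pairs allow. Among peaks without H3K9me3, an alternative chosen after seeing the data, they were -22.5 for FOSL2 and 4 for FOXA1. Peak lists hold no depth, so how far it limits these counts was not tested.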
